A study of Mus musculus with 24 samples.

Results

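The distal mandible was compared with the distal maxilla of mouse embryos whose neural crest lacks Tgfbr2, which encodes a TGF-beta receptor. The comparison uses 6 of the 24 arrays of the series, the 3 mutant distal mandible arrays and the 3 mutant distal maxilla arrays, chosen from the sample titles. Every embryo was at embryonic day 13.5 on a C57B6 background. Mutants, labelled Tgfbr2_Knockout, came from Wnt1cre;Tgfbr2fl/+ mice mated with Tgfbr2fl/fl mice, and they were recognised by their cleft palate and skull vault defect. Wnt1-Cre acts in the neural crest, so the receptor gene is kept in epithelium, endothelium, blood cells and the myogenic lineage. Controls were littermates, and the sources used here state neither their Cre status nor any pooling of embryos. The 3 control distal mandible and 3 control distal maxilla arrays served as the reference for the same jaw difference, and the 6 mutant proximal arrays for the other end of the jaws. The question was whether the jaws keep their separate expression profiles without the receptor.

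Mandible and maxilla grow from the first pharyngeal arch, and both are filled by neural crest cells that carry no Hox code. Endothelin-1, released by the arch epithelium, activates Dlx5, Dlx6 and Hand2 in the mandibular crest, and without this signal lower jaw structures take on upper jaw form. TGF-beta signalling through Tgfbr2 is needed in the crest for growth of the palatal shelves, the skull vault and parts of the mandible.

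The promoters of 4 transcription factor genes that differed between the mutant jaws are shown, because the genes moved in opposite directions: Hand2 and Nkx2-3 were higher in the mandible, Nr2f1 and Barx1 in the maxilla. They are the transcription factor genes of the identity lists with the smallest adjusted p that have an entry in the RefSeq promoter table. Each sequence is the 250 bases before a start in RefSeq (build GRCm38.p6), written 5′ to 3′ on the strand of the gene. Capitals mark TAATT or its reverse complement AATTA, a core that many homeodomain proteins bind, searched on both strands with overlapping matches counted separately.
Hand2, chr8:57320733-57320982, plus strand: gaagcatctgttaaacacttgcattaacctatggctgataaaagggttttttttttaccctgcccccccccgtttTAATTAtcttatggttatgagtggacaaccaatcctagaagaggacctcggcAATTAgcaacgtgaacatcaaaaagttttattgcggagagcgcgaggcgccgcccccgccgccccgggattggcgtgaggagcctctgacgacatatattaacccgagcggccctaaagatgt
Nkx2-3, chr19:43612075-43612324, plus strand: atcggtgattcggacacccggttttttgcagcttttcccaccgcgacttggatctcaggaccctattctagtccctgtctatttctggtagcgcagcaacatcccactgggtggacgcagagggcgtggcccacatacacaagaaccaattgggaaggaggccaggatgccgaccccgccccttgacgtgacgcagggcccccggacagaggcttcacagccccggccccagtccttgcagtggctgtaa
Nr2f1, upstream start, chr13:78198874-78199123, minus strand: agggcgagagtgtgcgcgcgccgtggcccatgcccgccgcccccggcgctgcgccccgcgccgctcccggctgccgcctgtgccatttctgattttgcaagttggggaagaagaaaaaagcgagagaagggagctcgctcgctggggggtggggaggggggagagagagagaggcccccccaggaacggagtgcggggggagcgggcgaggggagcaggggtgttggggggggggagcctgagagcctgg
Nr2f1, downstream start, chr13:78196450-78196699, minus strand: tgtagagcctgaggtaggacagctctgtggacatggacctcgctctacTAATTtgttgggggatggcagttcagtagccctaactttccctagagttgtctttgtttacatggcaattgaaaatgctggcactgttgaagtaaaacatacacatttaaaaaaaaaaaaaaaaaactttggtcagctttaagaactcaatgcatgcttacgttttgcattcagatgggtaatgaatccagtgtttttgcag
Barx1, chr13:48662786-48663035, plus strand: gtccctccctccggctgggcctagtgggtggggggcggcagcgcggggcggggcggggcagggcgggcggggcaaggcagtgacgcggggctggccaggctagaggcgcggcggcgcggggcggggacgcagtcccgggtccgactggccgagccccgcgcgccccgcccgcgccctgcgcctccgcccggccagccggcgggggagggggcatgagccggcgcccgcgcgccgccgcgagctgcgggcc
Hand2 held 3 matches, whose first bases lay at -175, -174 and -123 from the start, with the first 2 overlapping. The downstream window of Nr2f1 held 1 match, at -202. No match was found in the windows of Nkx2-3, Barx1 and the upstream start of Nr2f1, which says only that these letters are not there. The core occurred in 25.0% of all 32841 windows, in 15.7% of the windows of genes tested, in 38 of 211 windows of genes higher in the mutant distal mandible and in 89 of 482 windows of genes lower there.

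The deposited values are log2 expression levels, and a difference of 1 on this scale is a 2-fold difference. Tgfbr2 itself read 12.35, 12.49 and 12.39 in the mutant mandible arrays against 12.20, 12.54 and 12.68 in the mutant maxilla arrays, with overlapping values. The difference was -0.06 ± 0.109 (SE, adjusted p = 0.922). Its other probe sets gave 0.05 and -0.15. Where the probes lie with respect to the floxed exons is not stated, so these values do not check the deletion.

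Mutant maxilla replicate 1 stood apart from the other mutant maxilla arrays. The mean level of 22 cartilage genes was 10.45 on it against 7.79 and 7.73, that of 19 neuron genes 9.03 against 7.77 and 7.76, and that of 37 skeletal muscle genes 8.75 against 9.66 and 10.05. The nasal and olfactory list (14 genes) stood at 9.61 against 8.83 and 8.69. Correlations between replicates were 0.970 to 0.984 in the mutant distal maxilla and 0.983 to 0.993 in the mutant distal mandible. In the control they were 0.991 to 0.995 in the distal maxilla and 0.992 to 0.994 in the distal mandible. The Gapdh control probe sets gave 3′ minus 5′ differences, a measure of RNA degradation, of 0.60, 0.04 and 0.49 in the mutant mandible against 0.65, 0.04 and 0.77 in the mutant maxilla, so it followed the replicate number in both jaws, and it was 0.02 to 0.16 in the control distal arrays. Mutant replicates 2 and 3 held both Xist and Y-linked transcripts at high levels, and no control distal array did. The part of these differences in the results was not tested beyond the settings given below. These leave out single arrays or whole sets, or take the Gapdh difference as a covariate.

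**Figure D1:**
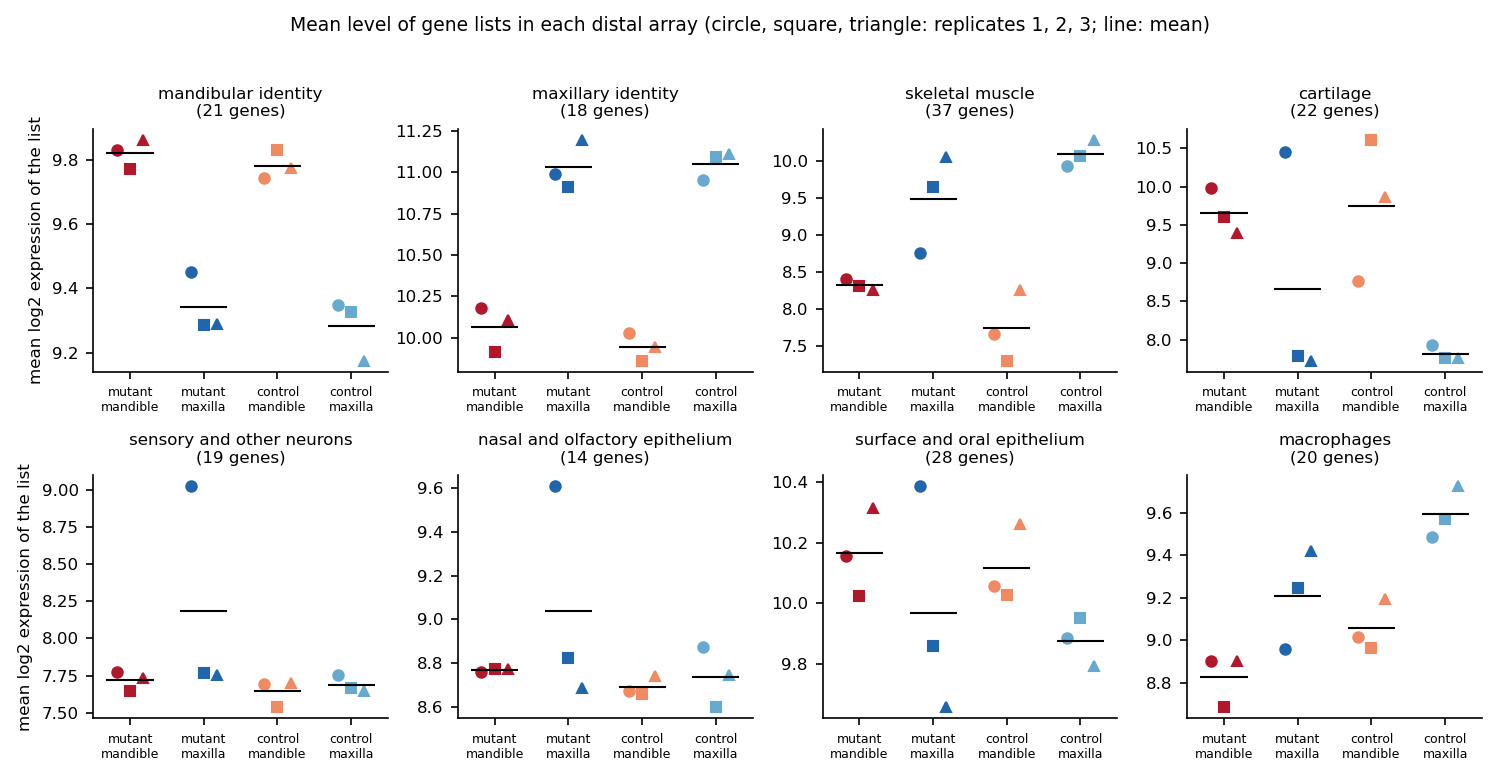
Mean log2 level of 8 gene lists in each distal array, with 1 marker per array and a line at the group mean. In the cartilage panel mutant maxilla replicate 1 lies at 10.45 and the other mutant maxilla arrays at 7.79 and 7.73, and in the muscle panel it lies lowest of its group at 8.75.

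In the mutant, 681 of 13850 genes (4.92%) differed between the distal jaws at an adjusted p under 0.05, which is what "called", "rose" and "fell" mean here. Higher in the mandible were 237 (1.71%) and lower were 444 (3.21%), and 217 differed by at least 2-fold (56 higher, 161 lower). The smallest adjusted p was 6.10e-07. Arrays with the same replicate number deviated together, though for number 1 hardly more than with another number. With the number as a block 1259 genes (9.09%) were called, 486 higher (3.51%) and 773 lower (5.58%). They included 680 of the 681. The count without mutant maxilla replicate 1 was 872 (6.3%), with 324 higher (2.34%) and 548 lower (3.96%), and 563 of these were among the 681. Without mutant maxilla replicate 3 it was 337, and without mutant mandible replicate 3 it was 381. The spread in these fits was pooled over all groups of the series. With the spread estimated from the mutant distal arrays alone, 82 genes were called, 78 of them among the 681. The control distal count instead rose from 1275 to 1708 with its own arrays alone. The errors and adjusted p-values given for single genes use the pooled spread. In bulk tissue a lower level can mean fewer cells of a type or less RNA per cell, and these cannot be told apart.

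Hand2, a transcription factor of the ventral arch, showed the largest rise. It read 13.51, 13.33 and 13.50 in the mutant mandible against 7.67, 9.47 and 9.28 in the mutant maxilla. Every mandible array lay far above every maxilla array, and the lowest maxilla value came from replicate 1. The difference was 4.64 ± 0.454, or 24.9-fold (adjusted p = 6.38e-06), and it was 4.07 without that array. Sfrp4, which encodes a secreted WNT antagonist, read 11.46, 11.74 and 11.73 against 8.23, 8.17 and 8.69. Its groups were tight and well apart, and it rose by 3.28 ± 0.292, or 9.70-fold (adjusted p = 3.20e-06).

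The other large rises included several genes of oral epithelium. Odam, known from enamel-forming and junctional epithelium, read 6.76, 8.32 and 7.84 in the mandible against 4.07, 5.89 and 4.41 in the maxilla, a rise of 2.85 ± 0.413. Krt6a and Krt6b, keratins of stratified epithelium whose probes may read each other because the genes are close copies, rose by 2.13 ± 0.390 and 1.98 ± 0.217. Without mutant maxilla replicate 1, where Krt6a read 10.47 against 8.90 and 8.40, the Krt6a difference was 2.74. Klhl14 rose by 1.98, Them5, an acyl-CoA thioesterase, by 1.97, Ret, the receptor tyrosine kinase of the GDNF pathway, by 1.95 (0.18 on its other probe set above the filter) and Sst, which encodes somatostatin, by 1.90. Groups that do not overlap were a condition for naming these rises, so this is no result about them, and 12.3% of all genes met it. Tmprss11a, an epithelial serine protease, gave 1.81 ± 0.488 (adjusted p = 0.0377), and leaving out any array other than mutant maxilla replicate 2 ended the call, with an adjusted p of up to 0.159.

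Among the falls, Crh, the corticotropin-releasing hormone gene, read 4.42, 3.68 and 4.29 in the mandible against 7.54, 7.94 and 8.98 in the maxilla. It was 16.3-fold lower in the mandible (-4.03 ± 0.402, adjusted p = 7.52e-06). Kcnd2, a potassium channel subunit, had the smallest p of all genes. Its values were 5.78, 6.04 and 5.52 in the mandible against 8.96, 8.75 and 9.56 in the maxilla, tight in both jaws. The difference was -3.31 ± 0.244, and -1.68 on its other probe set above the filter. Slitrk1, a synaptic adhesion protein, read 6.53, 6.58 and 6.27 against 9.05, 9.04 and 9.94 (-2.88 ± 0.235, adjusted p = 1.67e-06). Hoxd1 read 7.41, 6.02 and 6.25 against 9.91, 10.80 and 11.06, a difference of -4.03 ± 0.715 (adjusted p = 0.00219). Of the 7 Hox genes tested, Hoxd1 and Hoxd3 were called, both lower in the mandible, and Hoxd3 (-1.95, adjusted p = 0.0326) lost its call without mutant mandible replicate 2 or 3 or mutant maxilla replicate 2 or 3 (adjusted p up to 0.188).

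Fstl5, a secreted follistatin-like protein, showed the largest fall but with a wide spread. It read 4.89, 5.17 and 4.73 in the mandible against 11.32, 7.81 and 8.09 in the maxilla, where replicate 1 lay far above the others. The difference was -4.15 ± 0.866 (adjusted p = 0.00724) with that array and -3.02 (adjusted p = 0.0270) without it. On the other Fstl5 probe set it was smaller, at -2.19 with all arrays. The remaining large falls were Foxl2os (-3.21), Tmeff2, a transmembrane protein with follistatin-like domains (-3.10), Vstm2a (-2.91), the homeobox gene Meox2 (-2.75) and the fetal myosin Myh8 (-2.63, and -3.30 without mutant maxilla replicate 1).

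**Figure D2:**
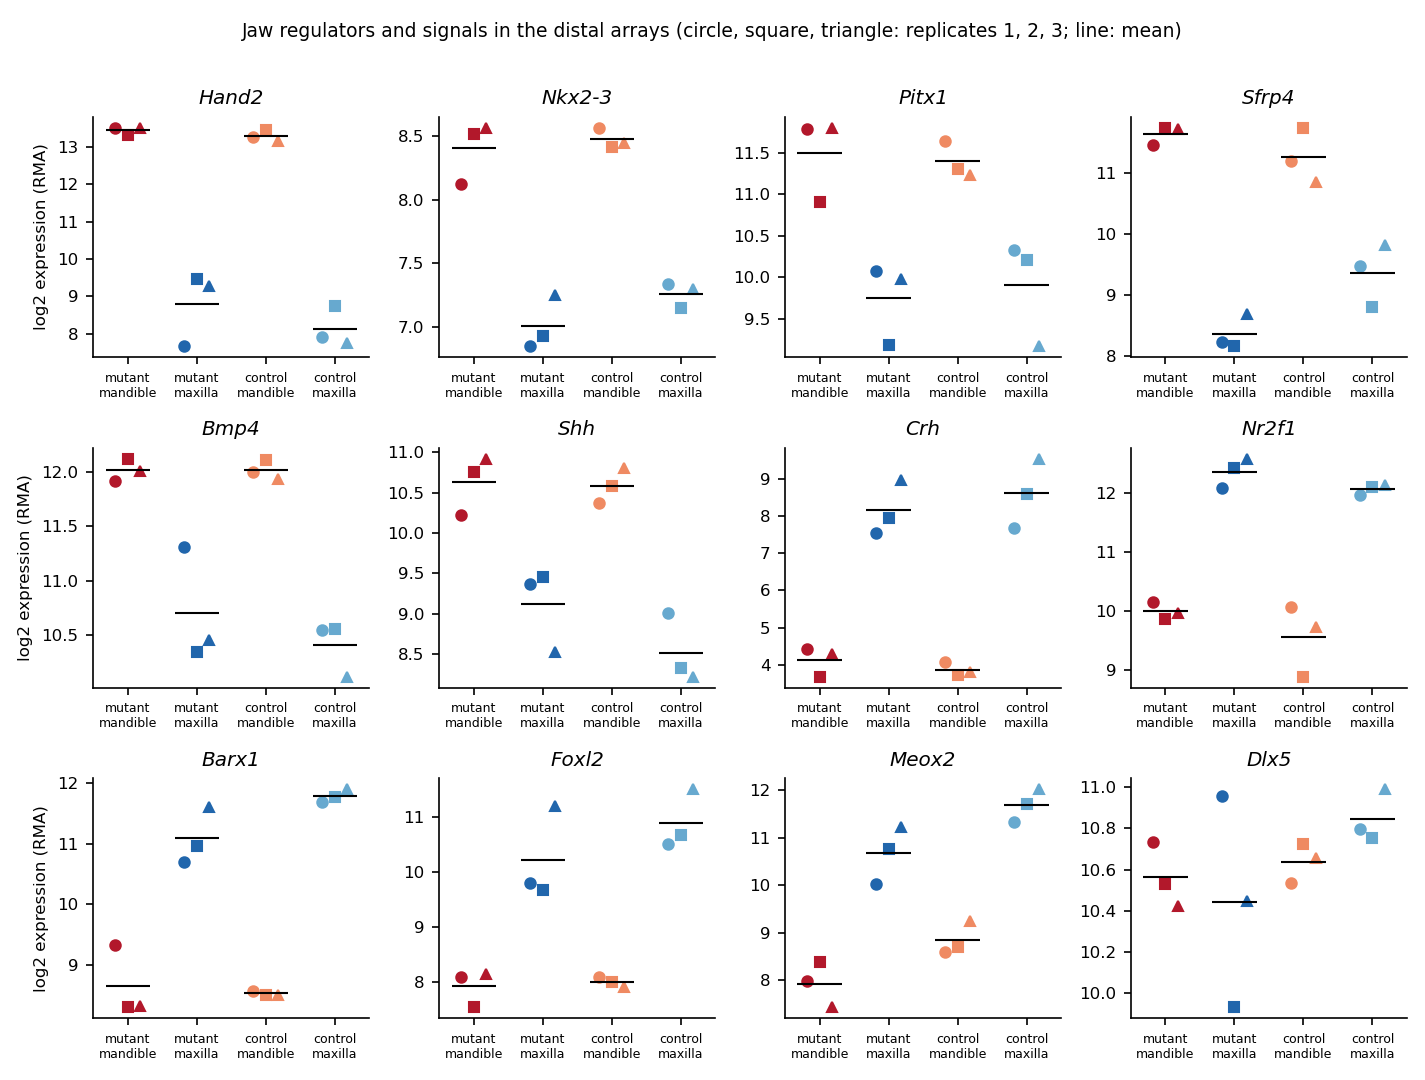
Log2 expression of 12 genes in the 12 distal arrays, grouped by genotype and jaw, with 1 marker per array and a line at the group mean. Mutant mandible arrays of Hand2 lie at 13.33 to 13.51 and mutant maxilla arrays at 7.67 to 9.47, while the 2 jaws overlap for Dlx5.

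Genes tied to mandibular identity rose in part, in a list chosen with earlier results of these data known. Of 21 tested, 4 were higher and 2 lower in the mutant mandible, with a median difference of 0.24 against 0.0061 over all genes, and in the control 8 were higher and 2 lower (9.21% of all genes were called there, 3.51% higher and 5.7% lower), with a median of 0.30. The mutant count was 7 higher and 2 lower without mutant maxilla replicate 1. Nkx2-3, a homeobox gene of pharyngeal tissue, read 8.12, 8.52 and 8.56 in the mandible against 6.85, 6.93 and 7.25 in the maxilla. It rose by 1.39 ± 0.133, or 2.62-fold (adjusted p = 5.70e-06). Pitx1, a homeobox gene of the oral epithelium and mandibular crest, read 11.79, 10.91 and 11.80 against 10.08, 9.18 and 9.97. The values did not overlap, replicate 2 was lowest in both jaws, and the rise was 1.76 ± 0.369 (adjusted p = 0.00746). Hand1, a relative of Hand2, stood lower, at 7.56, 7.18 and 7.29 against 6.63, 6.73 and 6.93, and rose by 0.58 ± 0.118 (adjusted p = 0.00633).

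Of the same list, 2 genes fell. Rgs5, a regulator of G protein signalling that also marks pericytes, read 7.76, 8.18 and 8.18 in the mandible against 9.80, 10.60 and 9.81 in the maxilla (-2.03 ± 0.335). Cited1, a transcriptional co-regulator, read 7.19, 6.68 and 7.25 against 8.02, 8.09 and 8.27 (-1.08 ± 0.162, adjusted p = 0.000563). Both were also lower in the control mandible, by 1.48 and 2.04 on the log2 scale. Gsc, a homeobox gene downstream of endothelin signalling, was not called. It read 9.04, 9.07 and 8.79 against 8.64, 8.45 and 7.74, a difference of 0.69 ± 0.365 (adjusted p = 0.421), where the control gave 1.58 ± 0.365 (adjusted p = 0.00777). The genotypes were not called different for Gsc (95% interval of the difference -1.96 to 0.20). Unc5c, a netrin receptor, gave 1.10 ± 0.324 (adjusted p = 0.0602), passed with the replicate block (adjusted p = 0.0292) and gave 1.68 without mutant maxilla replicate 1, whose value of 10.99 lay among the mandible arrays.

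Genes tied to maxillary identity fell in part. This list was also chosen with earlier results of these data known, so its counts and median are no independent support. It holds Crh and Foxl2os, which are also among the 10 largest falls. Of 18 tested, 7 were lower in the mandible, 1 was higher and 10 were not called, with a median of -0.39, and in the control 11 were lower and 2 higher, with a median of -0.63. Nr2f1, a nuclear receptor of the maxillary crest, read 10.16, 9.86 and 9.97 in the mandible against 12.09, 12.43 and 12.59 in the maxilla. It was 5.2-fold lower in the mandible (-2.38 ± 0.200, adjusted p = 1.80e-06), with tight values in both jaws. Its relative Nr2f2 gave 11.66, 11.03 and 11.39 against 12.31, 12.09 and 12.72 (-1.02 ± 0.168, adjusted p = 0.00135). Barx1, a homeobox gene of molar and jaw mesenchyme, read 9.33, 8.30 and 8.33 against 10.70, 10.97 and 11.60. It fell by 2.44 on the log2 scale (SE 0.236, adjusted p = 5.94e-06). Foxl2, a forkhead factor, read 8.09, 7.54 and 8.15 against 9.80, 9.68 and 11.20 (-2.30 ± 0.363). Foxl2os, its neighbour on the opposite strand, differed the same way (-3.21 ± 0.458), and maxilla replicate 3 was highest for both transcripts.

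The exception in direction was Ackr3, a chemokine-scavenging receptor, which rose by 0.36 ± 0.0731 (adjusted p = 0.00617) and was also higher in the control mandible (0.28). Zfhx4 was called with all 6 arrays (-0.65 ± 0.166, adjusted p = 0.0265) but not without mutant mandible replicate 1 or 3 or mutant maxilla replicate 2 or 3 (adjusted p up to 0.156). Six2, a homeobox gene of the maxillary and nasal mesenchyme, read 10.46, 8.97 and 9.51 in the mandible against 12.09, 10.33 and 10.51 in the maxilla. Replicate 1 was high in both jaws, the groups overlapped, and the difference of -1.33 ± 0.412 had an adjusted p of 0.0763 without the replicate block and 0.00122 with it. Irx3, Irx5 and Pou3f3 gave -0.42, -0.37 and -0.28 and were not called (adjusted p = 0.237 to 0.335). In the control these were -0.65, -0.76 and -0.56, all called.

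The Dlx genes, whose nested expression sets position along the arch, were mostly not called between the mutant distal jaws. Of 8 Dlx transcripts tested, 1 was lower and none higher, and with the block 2 were lower and 1 higher. Dlx5 read 10.74, 10.53 and 10.43 in the mandible against 10.95, 9.93 and 10.45 in the maxilla, and Dlx6 read 9.19, 9.25 and 9.08 against 9.62, 8.37 and 8.94. Maxilla values lay on both sides of the mandible values for both genes. The differences were 0.12 ± 0.185 and 0.20 ± 0.228 (adjusted p = 0.907 and 0.850), and the control gave -0.21 and -0.08, not called. Both mutant differences turned negative without mutant maxilla replicate 2, so they have no settled sign. Dlx2 gave 0.15 ± 0.212 (adjusted p = 0.893), and it turned negative without mutant maxilla replicate 1.

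Dlx1 was the member that was called. It read 9.31, 8.73 and 8.92 in the mandible against 9.57, 10.79 and 10.61 in the maxilla, where replicate 1 was lowest, and fell by 1.33 on the log2 scale (SE 0.245, adjusted p = 0.00282). In the control it fell by 1.54. Dlx3 gave 0.82 ± 0.235 (adjusted p = 0.0515), and with the block its adjusted p was 0.0219. Dlx4 gave 0.61 (adjusted p = 0.425). The transcripts Dlx1as and Dlx6os1, from the opposite strands of the pairs, gave -1.28 and -1.08 (adjusted p = 0.214 and 0.0688), and with the block Dlx6os1 passed (adjusted p = 0.0472).

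Among 26 palate and midface transcription factors, 2 rose and 7 fell, with a median of -0.13. Meox2, needed for the palatal shelves, read 7.98, 8.38 and 7.43 in the mandible against 10.03, 10.77 and 11.23 in the maxilla. The jaws were well apart, with 6.71-fold less in the mandible (adjusted p = 1.31e-05). Pax7 read 7.59, 6.93 and 7.38 against 10.58, 8.42 and 9.59 (-2.23 ± 0.420). Shox2, which acts in the anterior palate, gave -0.83 and the transcriptional regulator Mn1 gave -0.46, and neither was called without mutant maxilla replicate 3 (adjusted p = 0.0660 and 0.0679). Msx2 was higher, by 1.48 ± 0.343 (adjusted p = 0.0149), but was not called without mutant mandible replicate 1 or 3 or mutant maxilla replicate 3 (adjusted p up to 0.0976). Of 19 crest mesenchyme factors 2 rose and none fell, and with the block 4 rose and 1 fell. Snai1, a repressor of E-cadherin, rose by 0.79 ± 0.152 (adjusted p = 0.00418).

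Several signals of the tooth field rose in the mandible. Of 21 tooth genes, 5 rose and 1 fell (median 0.41). The one that fell was Barx1. Shh, the hedgehog ligand made by oral epithelium, read 10.23, 10.76 and 10.92 in the mandible against 9.36, 9.45 and 8.53 in the maxilla. It rose by 1.52 ± 0.285, or 2.86-fold (adjusted p = 0.00336). Bmp4, a BMP ligand of distal mesenchyme and early tooth epithelium, read 11.92, 12.12 and 12.01 against 11.31, 10.34 and 10.46. It rose by 1.31 ± 0.198, or 2.48-fold (adjusted p = 0.000603), with the highest maxilla value on replicate 1. Pitx1, Sp6 (0.95) and Fgf3 (0.77) were the other tooth genes that rose. Other probe sets of Sp6 gave 0.044 above the filter, and 0.47 and -0.043 below it.

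In the BMP list 5 of 25 rose and 2 fell, with a median of 0.03. Besides Bmp4, Gdf10, a TGF-beta superfamily ligand, read 12.44, 12.35 and 12.52 against 11.37, 11.20 and 11.43 (1.10 ± 0.115, adjusted p = 1.13e-05). Bambi, a pseudoreceptor that blocks BMP and TGF-beta signals, rose by 1.12 ± 0.188 (adjusted p = 0.00146). Bmpr1b, a type I BMP receptor, read 7.91, 7.85 and 7.87 against 9.04, 8.85 and 8.86 and fell by 1.04 on the log2 scale. Bmp6 (1.17, a ligand) and Bmper (-1.13, a BMP-binding protein) were each lost without 1 array, mutant maxilla replicate 3 for Bmp6 (adjusted p = 0.0553) and mutant mandible replicate 3 for Bmper (adjusted p = 0.0778).

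Of 33 WNT genes 3 rose and 2 fell (8 and 3 with the block), with a median of 0.21. Sfrp4 rose as given above, whereas Sfrp2, a related secreted antagonist, read 12.78, 12.58 and 12.44 against 13.36, 13.46 and 13.62 and fell by 0.88 on the log2 scale (adjusted p = 6.05e-05). Rspo1 (-0.74), Wif1 (0.76) and Notum (0.57) each lost the call without at least 2 of the arrays (adjusted p up to 0.184). Of 18 FGF genes 5 rose and 2 fell. The receptors Fgfr1 and Fgfr2 rose by 0.36 and 0.43, under 2-fold but with adjusted p of 0.00411 and 0.00350. Fgf18 (0.67), Etv4 (0.72) and Spry2 (-0.51) each lost the call without at least 1 array (adjusted p up to 0.232). Of 15 retinoic acid genes none rose and 2 fell (4 with the block). Aldh1a2, a retinoic acid synthesis enzyme, read 9.36, 8.81 and 9.03 against 10.52, 10.40 and 10.52 (-1.41 ± 0.135, adjusted p = 5.70e-06). The other called gene, Aldh1a3, a second such enzyme (-0.99), was lost without mutant mandible replicate 1 or 3 or mutant maxilla replicate 1 or 3 (adjusted p up to 0.160), and its other probe sets gave -0.26 and -0.15.

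Of 29 TGF-beta ligands, receptors and regulators, 2 rose and 1 fell, with a median of 0.06. Tgfbi, a matrix protein induced by TGF-beta, read 11.41, 10.79 and 10.92 against 12.28, 11.79 and 12.59. It fell by 1.18 on the log2 scale (SE 0.172, adjusted p = 0.000423), and by 1.01 in the control. Itgav, the integrin subunit that helps release latent TGF-beta, rose by 0.37. Smad7, an inhibitor of the pathway, gave 0.36 and was not called without mutant maxilla replicate 3 (adjusted p = 0.0680). The counts were 5 higher and 3 lower without mutant maxilla replicate 1. None of 19 Eph receptors and ephrins was called, against 3 higher in the control. Over all genes 4.92% were called in the mutant and 9.21% in the control, so among 19 genes a count of 0 lies near the mutant share. In this family 1 was higher with the block and 2 were higher without mutant maxilla replicate 1. None was called for the difference between the genotypes. At an unadjusted p under 0.05, 2023 of the 13850 genes (14.6%) passed in the mutant.

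Many skeletal muscle genes fell. Of 37 tested, 17 were lower in the mutant mandible and none higher (23 lower with the block, 28 without mutant maxilla replicate 1), with a median of -1.19, and in the control 31 were lower and 2 higher, with a median of -2.26. The mean level of the list was 8.40, 8.31 and 8.25 in the mutant mandible against 8.75, 9.66 and 10.05 in the mutant maxilla. Tnnc1, slow muscle troponin C, read 9.68, 9.72 and 9.47 against 10.76, 11.71 and 12.22. It was 3.83-fold lower in the mutant mandible (adjusted p = 0.00224) and 17.5-fold lower in the control mandible. The control mandible arrays lay at 7.91, 7.55 and 9.05, below the mutant ones. Actn2 (-1.98), Tnnc2 (-2.51) and Myl1 (-2.17), all sarcomere genes, fell with it.

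No cartilage gene was called among 22 tested, although their median was 1.07, and 12 were higher in the control (median 1.67). Without mutant maxilla replicate 1, whose cartilage level of 10.45 exceeded the mutant mandible levels of 9.98, 9.60 and 9.39, 12 were called higher, with a median of 1.86. Of 13 bone genes 2 rose and none fell. They were Alpl, the mineralising phosphatase (1.08), lost without mutant mandible replicate 1 or mutant maxilla replicate 3 (adjusted p up to 0.0927), and Pth1r, the parathyroid hormone receptor (0.43), lost without any array other than mutant mandible replicate 2 (adjusted p up to 0.141). Of 15 tendon genes 2 rose and 4 fell, among them Col14a1, a collagen of fibril surfaces, which fell by 1.53 on the log2 scale. Tnc (0.94), Mkx (0.70), Kera (-1.52), Thbs2 (-0.56) and Scx (-0.82), the other called members, each lost the call without at least 1 array (adjusted p up to 0.141), all of them without mutant maxilla replicate 3.

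Of 28 surface and oral epithelium genes, 5 rose and none fell, with a median of 0.29. Krt14, a basal keratin, read 12.86, 12.63 and 13.04 against 11.76, 12.04 and 11.73 and rose by 1.00 ± 0.160 (adjusted p = 0.00103). The other called members were Sfn, Krt5, Pkp1 and Dsp, at 0.78, 0.76, 0.75 and 0.44. Sfn lost its call without any of 3 of the 6 arrays, and Krt5, Pkp1 and Dsp without any of 5 (adjusted p up to 0.196). The list count was 3 higher without mutant maxilla replicate 1. Of 14 nasal and olfactory genes none was called, and of 19 neuron genes 2 fell, Syt4, a synaptotagmin (-1.81, adjusted p = 0.00418), and Ntrk3, a neurotrophin receptor (-1.18), whose call was lost without any of 3 of the arrays (adjusted p up to 0.126). The neuron median was -0.46 with all arrays and -0.05 without mutant maxilla replicate 1. Cell cycle genes (0 of 29 called, median 0.0035) and hypoxia and glycolysis genes (0 of 23, median 0.08) were not called, and without that array 2 of the latter were higher.

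**Figure D3:**
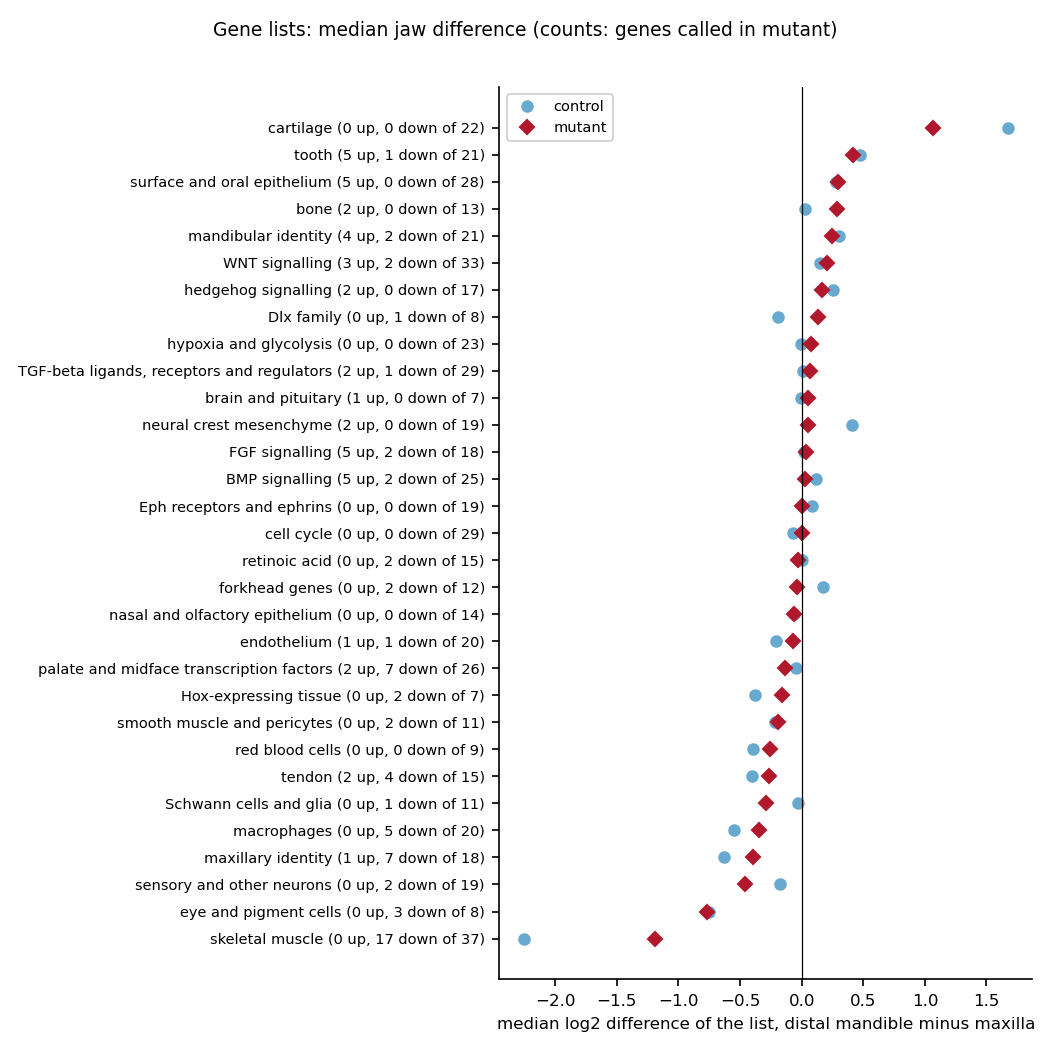
Median log2 difference between distal mandible and maxilla for 31 gene lists, in mutant (diamonds) and control (circles) arrays, with the number of genes called in the mutant beside each name. Skeletal muscle lies farthest to the left, at -1.19 in the mutant and -2.26 in the control, and cartilage farthest to the right, at 1.07 and 1.67.

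The jaw difference was then set beside that of the control distal ends, where 1275 genes (9.21%) were called, 486 higher and 789 lower in the mandible (with the block 1966, 14.2%, of which 5.38% of all genes higher and 8.82% lower). Of the mutant calls 539 were also called in the control, 79.1% of the mutant calls and 42.3% of the control calls. All 539 had the same sign, 188 higher and 351 lower. Of the 1275 control calls 1248 (97.9%) had the same sign in the mutant, against 67.6% of all genes. All 413 control calls of at least 2-fold had the same sign in the mutant, and 243 of them were called there. Across the 13850 genes, which are not independent replicates, the correlation of the 2 differences was 0.83 (Pearson) and 0.58 (Spearman).

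How the sizes compared depended on which genotype chose the genes. Among genes called in the control, the median ratio of mutant to control difference was 0.648, and among genes called in the mutant the median ratio of control to mutant difference was 1.03. Each selection favours large differences in the genotype that made it, yet by these ratios the mutant differences were not the larger ones in either. Without mutant maxilla replicate 1 the first ratio was 0.752, and 50.3% of the control calls were called in the mutant.

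**Figure D4:**
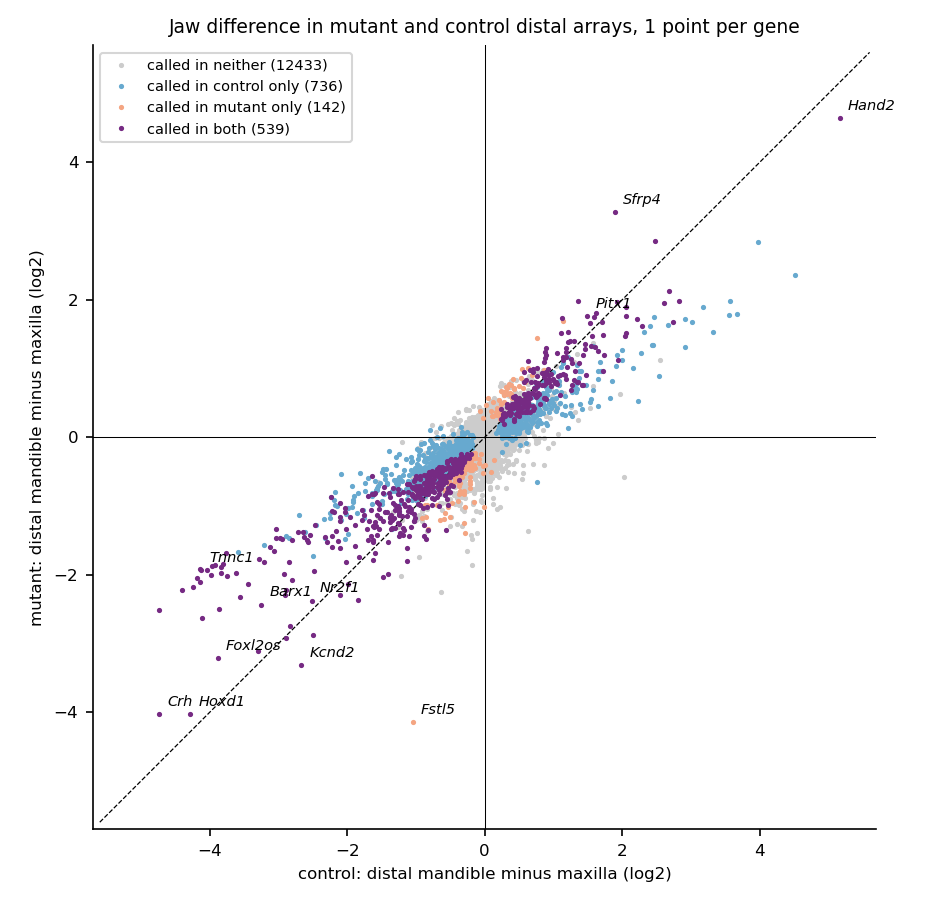
Difference between distal mandible and maxilla in control (horizontal) and mutant (vertical) arrays, both in log2, with 1 point per gene for 13850 genes. The 539 genes called in both lie at the lower left and upper right, and Hand2 and Crh lie at the 2 ends.

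No gene was called for the difference between the genotypes themselves (0 of 13850, 0%, by limma and 0 with the block), and the smallest adjusted p was 0.909 (0.111 with the block). At an unadjusted p under 0.05, 421 genes passed (3.04%), and 997 with the block. The median half-width of the 95% interval was 0.33, or 1.26-fold, so the lack of calls does not show that the genotypes were alike. Likewise 0 genes were called without mutant maxilla replicate 1. For the identity genes the intervals were wide. The genotype difference (mutant minus control) was -0.52 for Hand2 (-1.87 to 0.82), 0.18 for Nkx2-3 (-0.21 to 0.57), 0.14 for Nr2f1 (-0.45 to 0.73) and 0.71 for Crh (-0.48 to 1.91).

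The 3 smallest p-values of that test, none of which passed the correction, were those of Gas2, Usp18 and Fgd3 (adjusted p = 0.909 for each). Gas2, a cytoskeletal protein, read 10.07, 10.37 and 9.82 in the mutant mandible against 10.38, 10.85 and 10.70 in the mutant maxilla, and 9.94, 9.97 and 10.45 against 11.68, 11.68 and 11.90 in the control. Its jaw difference was -0.56 in the mutant and -1.64 in the control (interval of the genotype difference 0.64 to 1.52). Usp18, an interferon-induced protease, gave -0.65 in the mutant and 0.75 in the control, and Fgd3 -0.22 and 0.26. In the mutant neither was called, and in the control both were (adjusted p = 0.0312 and 0.0327).

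Intervals that excluded 0 before correction included several of the genes above. By the same limma test 421 of 13850 genes (3.04%) had an unadjusted p under 0.05, where a share of 0.05 passes if no gene differs. With the block 997 passed. Such an interval alone is therefore no sign of a genotype effect. Sfrp4 differed between the jaws by 3.28 in the mutant and 1.89 in the control (interval 0.52 to 2.25), and Fstl5 by -4.15 and -1.05 (-5.66 to -0.53). Without mutant maxilla replicate 1 the Fstl5 genotype difference was -1.97 ± 1.06 (unadjusted p = 0.0802 by limma), which no longer excluded 0. Sfrp4 and Fstl5 were named for their large mutant differences, a choice that favours a larger difference in the mutant. Tnnc1 gave -1.94 and -4.13 (1.17 to 3.22) and Bambi 1.12 and 1.94 (-1.38 to -0.26). None of these passed the correction over all genes. Of the 142 mutant calls not called in the control, 137 had the same sign there. The other 5 were 6330407A03Rik, Atg13, Capn5, Dennd4a and Sost, whose mutant differences were -0.41, 0.28, 0.39, -0.32 and -0.50, and they were named after their values were seen. Sost, an inhibitor of WNT and BMP signals in bone, gave 0.10 in the control (adjusted p = 0.851).

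The mutant jaw difference was last set beside that of the proximal ends of the same mutant jaws, where 788 genes (5.69%) were called, 378 higher (2.73%) and 410 lower (2.96%) in the mandible (with the block 1721, 12.4%, of which 5.7% of all genes higher and 6.73% lower). Of these, 167 were called at both ends, 24.5% of the distal and 21.2% of the proximal calls, and 155 had the same sign. For 183 genes (1.32%) the jaw difference itself differed between the ends, 71 (0.513%) with a more positive and 112 (0.809%) with a more negative difference at the distal end. With the block there were 428 (3.09%; 1.26% positive and 1.83% negative), 180 of them shared. Of the 183, 77 had a called jaw difference at the distal end alone and 87 at the proximal end alone.

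Hand2 differed at both ends, with proximal values of 11.54, 11.02 and 11.31 in the mandible against 6.76, 7.36 and 7.42 in the maxilla (4.11 ± 0.454). The end difference was 0.52 ± 0.642, not called. Pitx1 gave 1.76 at each end. Sfrp4 differed at the distal end and was not called at the proximal end, with proximal values of 7.98, 8.07 and 8.55 against 7.80, 8.53 and 8.47 (end difference 3.34 ± 0.412, adjusted p = 0.000347). Nkx2-3 likewise gave 0.22 at the proximal end (end difference 1.17, adjusted p = 0.00294). Nr2f1 was high in both proximal jaws, at 12.20, 12.34 and 12.56 against 12.66, 12.93 and 12.62, and its end difference was -2.01 (adjusted p = 0.000924). Barx1 read 12.15, 11.82 and 12.00 against 11.42, 11.20 and 11.70 proximally, where the mandible was not lower (end difference -2.99 ± 0.333, adjusted p = 0.000246).

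Other genes differed at the proximal end. Dmp1, a matrix protein of osteocytes, read 9.19, 10.23 and 10.71 in the proximal mandible against 6.77, 7.74 and 7.80 in the proximal maxilla. At the distal end it read 6.25, 5.96 and 6.22 against 6.86, 6.80 and 7.36, and the end difference was -3.47 ± 0.454 (adjusted p = 0.000484). Lpar3, a lysophosphatidic acid receptor, gave 1.84 proximally and -0.21 distally, and Lipi, a lipase, 2.66 and 0.39. The sign was opposite, with both ends called, for 12 genes. Ret, on its brightest probe set, gave 1.95 distally and -1.42 proximally, and Fam155a gave 1.25 and -0.94. Olfm1, a secreted glycoprotein of neural tissue, gave 0.39 and -0.70, and its distal call was lost without mutant mandible replicate 1 or 3 or mutant maxilla replicate 2 or 3 (adjusted p up to 0.101). Pcolce, an enhancer of procollagen processing, gave -0.54 and 0.46. Mutant proximal maxilla arrays also carried neuron genes at a mean of 9.52, 10.31 and 9.01, against 7.94, 8.49 and 8.04 in the proximal mandible, and the part of these in the end difference was not tested.

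**Figure D5:**
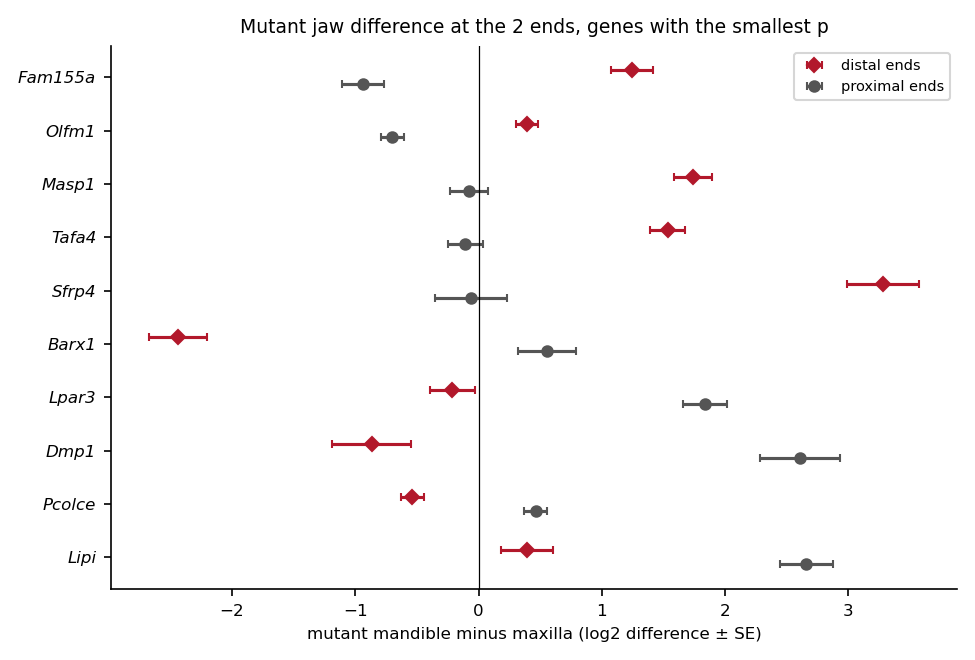
Mutant mandible minus maxilla (log2 difference with SE) at the distal ends (diamonds) and the proximal ends (circles) for the 10 genes with the smallest p for the end difference. Dmp1 lies at -0.87 distally and 2.61 proximally, and Sfrp4 at 3.28 and -0.06.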

How the data were processed

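Each array was hybridised with biotin-labelled cRNA from 5 µg of RNA, per the labels' protocols. The authors deposited log2 expression levels, and the submitters' processing notes name RMA. Its version and the arrays normalized together are not stated. No source says that the replicates are separate animals. In the distal mandible Xist read 6.40, 13.81 and 13.65 in the control and 6.98, 13.57 and 12.89 in the mutant. Replicate 1 is therefore not a technical repeat of replicates 2 and 3. Whether these 2 repeat each other is not known, and the p-values cover only the spread between these samples. The number of arrays limits the precision.

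Of 45101 probe sets, 34958 name 1 gene symbol, 932 several and 9211 none (34754 matched a RefSeq gene table by gene ID, and no symbol changed). Each of 18194 genes was taken from its brightest probe set, and 13850 above the 40th percentile of an array on at least 3 arrays were tested. The 8 groups (24 arrays) were fitted together in limma 3.58.1 (R 4.3.3), with 16 residual degrees of freedom. All adjusted p-values are from this fit (Benjamini-Hochberg over 13850 genes) unless the block is named, errors are SE and intervals are 95%. The comparisons were the mutant distal, control distal and mutant proximal jaw differences, the mutant minus control distal difference and the distal minus proximal mutant difference. The fit was tested on simulated data.

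Deviations of same-numbered mandible and maxilla arrays from their group means correlated at 0.31, 0.70 and 0.25 (mutant distal), 0.38, 0.11 and 0.37 (control distal) and 0.23, 0.62 and 0.20 (mutant proximal). With an array of another number, mandible replicate 1 reached 0.29 (mutant distal) and 0.25 (mutant proximal). These correlations thus do not set number 1 apart as a pair in the mutant. Xist does separate it from the other numbers. In the mutant distal mandible and maxilla it read 6.98 and 6.45 for number 1, and 12.89 to 13.57 for numbers 2 and 3. All numbers were taken as pairs, from the values and not the labels. For mutant number 1 the correlations do not show it, and that its arrays share embryos is an assumption. Counts with the number as a block stand beside the others.

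The members, the 32 gene lists and the tests were chosen with earlier results of these data known. Named genes were Tgfbr2, the 10 largest called rises and 10 largest called falls whose arrays do not overlap, the 3 smallest p of the genotype difference, the 5 smallest p each way of the end difference, up to 6 called members of each list and members of the identity and Dlx lists. Some uncalled members of the identity lists are counted but not named. Promoter sequences are from RefSeq.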

Additional observations from a re-analysis of the deposited data

Results flagged for a closer look

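The mutant jaw difference was not the same at the distal and proximal ends for 183 genes by the interaction test in limma (adjusted p under 0.05). The 5 with the smallest p in each direction had adjusted p between 0.000246 and 0.000566. On the log2 scale, the distal minus proximal difference was 2.18 for Fam155a, 1.09 for Olfm1, 1.81 for Masp1, a protease of the lectin complement pathway, 1.64 for Tafa4, a secreted chemokine-like protein, and 3.34 for Sfrp4. It was -2.99 for Barx1, -2.05 for Lpar3, -3.47 for Dmp1, -1.0 for Pcolce and -2.27 for Lipi. Tafa4 read 5.94, 6.40 and 6.43 in the distal mandible against 4.69, 4.81 and 4.67 in the distal maxilla. At the proximal ends its jaws overlapped, at 4.95, 4.92 and 4.69 against 4.75, 5.06 and 5.05.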

How the results depend on the processing

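The count of 681 genes in the mutant distal jaw difference became 82 when the spread was estimated from the 6 arrays compared alone, 1259 and 1346 with the replicate number as a fixed or random block, and 1279 with the Gapdh difference as a covariate (588 higher and 691 lower, 46.0% higher against 34.8%). It was 299 at an adjusted p under 0.01 and 217 at a minimum of 2-fold. Of alternatives chosen after seeing the data, it was 189 without mutant set 3 (the arrays numbered 3), 587 without set 2 (48.0% higher), 102 without sets 1 and 3, and 1123 without distal set 1 and with the block. Without single arrays it ran from 337 (mutant maxilla replicate 3) to 872 (mutant maxilla replicate 1). The control count became 1708 with its own arrays alone. It was 1966 and 2037 with the blocks and 773 to 1103 without single arrays (lowest without control maxilla replicate 3, and 781 without control mandible replicate 2). The genotype difference stayed at 0 calls without any single array, and gave 1 with the random block, 1 without mutant set 1 and 2 without mutant sets 1 and 3. The proximal count of 788 became 232 with its own arrays alone, 1721 and 1783 with the blocks, 1748 with the Gapdh covariate and 442 to 862 without single arrays (lowest without mutant mandible replicate 1, and 499 without mutant mandible replicate 3). The count of 183 end differences became 51 with those arrays alone, 428 and 531 with the blocks, 358 with the Gapdh covariate, 121 without set 2, 17 without set 3 and 56 without sets 1 and 3. Without single arrays it ran from 94 (proximal mutant mandible replicate 3) to 369 (distal mutant maxilla replicate 1), with 105, 114 and 115 without distal mandible 3, distal maxilla 3 and proximal mandible 1. Fewer arrays lower the power. The control count rose with its own arrays alone where the mutant count fell, and the cause of the lower counts was not tested.

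Of the 100 called genes named, 58 kept the call without any single array and 42 lost it without at least 1. The call was lost by 70 of the 100 with the spread from the 6 arrays alone, by 59 without mutant set 3, by 24 without set 2, by 14 without set 1, by 72 without sets 1 and 3 and by 13 with the mean of all probe sets. No called named gene changed sign in any setting run. Uncalled genes that did were Dlx2 (-0.074 to 0.33 without single arrays, -0.11 without set 1 with or without the block, -0.26 without sets 1 and 3), Dlx5 (-0.14 to 0.37 without single arrays, -0.12 without set 2), Dlx6 (-0.11 to 0.52 and -0.14) and Tgfbr2 (-0.20 to 0.040, and 0.049 without set 3). With 3 arrays a group, differences under the intervals given could not be seen.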

Other observations

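Marker genes of cells outside the jaw mesenchyme also differed between the mutant distal ends. Of 20 macrophage genes, 5 were lower in the mandible and none higher (13 lower in the control), with a median of -0.35. The mean level of the list was 8.90, 8.69 and 8.90 in the mutant mandible against 8.96, 9.25 and 9.42 in the mutant maxilla. Called members included Lyz1 (-0.87) and Lyz2 (-0.68), lysozymes whose probes may read each other, and Fcgr3, an antibody receptor (-0.79). All 5 called members, which also included Ptprc and Aif1, lost the call without 2 to 5 of the 6 arrays (adjusted p up to 0.227), each of them without mutant maxilla replicate 3. Of 8 eye and pigment genes above the filter 3 were lower (4 with the block), with a median of -0.76. The pigment genes Dct (-1.81) and Pmel (-1.33) lost the call without any array other than mutant maxilla replicate 1 (adjusted p up to 0.128). Cryab, a small heat shock protein of lens and muscle, was 3.02-fold lower in the mandible (adjusted p = 0.000371), and its level also stood lower in the control mandible (-2.22). Of 20 endothelial genes 1 rose and 1 fell, and the one that fell was Erg, an endothelial ETS factor (-0.78 ± 0.154, adjusted p = 0.00472). Sox18, which rose by 0.57, lost its call without any of 3 of the arrays (adjusted p up to 0.108). Leaving out mutant maxilla replicate 1, the endothelial counts were 1 higher and 4 lower and the macrophage count was 8 lower. None of 9 red blood cell genes and none of 4 sex-linked genes was called.

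Of 17 hedgehog genes 2 rose and none fell. They were Shh and Gli2, a transcription factor of the pathway (0.24), which lost its call without any array other than mutant maxilla replicate 1 (adjusted p up to 0.176). Of 12 forkhead genes 2 fell, Foxl2 and Foxp2 (-1.21, and from -1.33 to -0.17 on its other probe sets above the filter), and Foxp2 lost its call without mutant mandible replicate 1 or 3 or mutant maxilla replicate 3 (adjusted p up to 0.156). Of 11 smooth muscle and pericyte genes 2 fell, Rgs5 and Kcnj8, and of 11 Schwann cell and glial genes 1 fell, Fabp7, with 4 and 3 lower when mutant maxilla replicate 1 was left out. Kcnj8 and Fabp7 each lost the call without any of 4 of the arrays (adjusted p up to 0.175). Of 7 brain and pituitary genes above the filter 1 rose, and it was Pitx1.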
